A study of Mus musculus with 6 samples.

Results

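Mir423, Mir328, Mir484 and Mir744 are 4 microRNA (miRNA) genes of the mouse that were counted well in small RNA of thymic regulatory T (Treg) cells. They were chosen by name, as genes selected on their raw read counts, so their abundance is given below as a description and without a test. They make up 4 of the 1241 features in the deposited miRNA table, 4 of the 178 with a count in any library, and 4 of the 23 that reached 10 counts in 3 or more libraries. Treg cells had been sorted by flow cytometry from thymi of mice aged 7 weeks, labelled as strain C5BL6/N, and each sample was a pool of 3 thymi. The labels and the methods of the study give the thymus as the source, which is followed here, although its results text speaks of peripheral Treg cells. One group was WT and the other was homozygous for a deleted miR-181a/b-1 cluster (miR-181a1/b1 -/- in the labels, miR-181a/b-1-/- or deficient here), with 3 biological replicates in each and no further treatment. The comparison asked how the small RNA of Treg cells differs when this miRNA cluster is missing. The deletion is not restricted to Treg cells by the labels, and in such bulk samples fewer cells of a type and less RNA per cell cannot be told apart.

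An miRNA is transcribed as part of a longer RNA that folds into a hairpin. In the usual pathway Drosha with Dgcr8 cuts out the hairpin, Xpo5 exports it, Dicer1 releases the short duplex and an Ago protein keeps one strand. The loaded strand binds messenger RNAs mainly through its seed, bases 2 to 8 counted from the 5′ end, and lowers their translation or stability with the help of Tnrc6 proteins. All 4 genes are expressed in many tissues. miR-423 was linked to the cell cycle inhibitor Cdkn1a, miR-328 to the drug transporter Abcg2 and to binding of an hnRNP as a decoy, miR-484 to the mitochondrial fission protein Fis1, and miR-744 to the cytokine Tgfb1, which promotes Treg cells. The hairpin of miR-484 is made as a capped RNA that does not need Drosha.

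Mature strands of 3 of the 4 genes were taken from a RefSeq table, and these are shown because the counts cannot tell the strands apart and because the seed decides which messengers a strand can pair with. Capitals mark the seed.

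miR-423-5p: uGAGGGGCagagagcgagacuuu
miR-423-3p: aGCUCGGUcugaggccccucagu
miR-484: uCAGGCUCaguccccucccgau
miR-744-5p: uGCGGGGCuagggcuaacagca
miR-744-3p: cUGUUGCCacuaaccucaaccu

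The 5 strands had 5 different seeds. The longest run that any pair of these seeds shared was 5 bases, between miR-423-5p and miR-744-5p. Among the 1738 mature miRNAs of the RefSeq table (GRCm38.p6), 1 other, miR-6921-5p, had the seed of miR-423-5p, and 0 others had the seed of any of the remaining 4 strands. G and C made up 56.5% of miR-423-5p, 65.2% of miR-423-3p, 63.6% of miR-484 and 63.6% of miR-744-5p. The median over the 1738 mature miRNAs was 52.2%, so 4 of the 5 strands lay above it and miR-744-3p lay below. The hairpins of Mir423, Mir484 and Mir744 shared at most 12, 11 and 15 bases in a row with any other hairpin of the table, and each mature strand occurred in the transcripts of its own gene only in GENCODE vM21. For these 3 genes a near-identical copy that could divide the reads was therefore not found in these tables.

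The 4 genes lie at separate places of the genome (GRCm38, GENCODE vM21), with Mir423 and Mir744 far apart on the same chromosome. Mir423 (ENSMUSG00000065518.2, chr11:77078064-77078172, minus strand) lies in an intron of Nsrp1, a splicing factor gene, on the same strand. Mir744 (ENSMUSG00000076460.1, chr11:65734733-65734832, minus strand) lies in an intron of Map2k4, a kinase gene of the stress-activated pathways, also on the same strand. Mir484 (ENSMUSG00000070074.1, chr16:14159626-14159692, plus strand) runs opposite to Marf1, an RNA-binding protein gene, and 19 bases of its hairpin overlap an exon in 1 of 3 Marf1 transcripts. That overlap (chr16:14159674-14159692) covers 0 bases of the mature miR-484 strand. Mir328 (ENSMUSG00000070130.1, chr8:105308364-105308460, minus strand) runs opposite to Elmo3, a gene of cell engulfment and motility, and 12 bases of its hairpin overlap an exon in 3 of 5 Elmo3 transcripts. Whether reads were counted by strand is not given in the sources used here, so reads from these overlaps could have been left out as falling on more than 1 gene.

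The libraries were shallow in miRNA. Counts on genes totalled 222013 to 243620 in WT libraries and 168293 to 307840 in deficient libraries, of which the miRNA table took 1.11% to 1.52% and 0.697% to 1.11%, respectively. The 2 genes of the deleted cluster could not check the labels, as Mir181a-1 had 1 count, in WT replicate 2, and Mir181b-1 had 0 counts in all 6 libraries. The study measured miR-181a in thymic Treg cells by quantitative PCR, so these counts do not show that it was absent in WT. Treg markers were counted for 7 of 7 genes, and together they gave 1054 to 1100 CPM of gene counts in WT and 997 to 1260 in deficient libraries. Foxp3, which defines the lineage, had 17 to 39 counts per library and Ctla4 had 1 count in all. The 8 T cell markers were all counted, whereas summed levels in CPM were at most 25.6 for 7 double-positive thymocyte markers, 13.0 for 5 B cell markers, 5.13 for 5 myeloid markers and 5.13 for 3 platelet markers. The 6 erythroid markers, hemoglobin genes among them, had 0 counts, and so had Mir451a, Mir144 and Mir223, which are abundant in red cells, platelets or myeloid cells. Mir486a and Mir486b, on the same list as these miRNA genes, were not found by name in the data.

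Mir423, the most abundant of the 4 genes, had 188, 158 and 164 counts in WT replicates 1, 2 and 3 and 131, 129 and 152 counts in deficient replicates 1, 2 and 3. For Mir328 the counts were 135, 122 and 111 in WT and 103, 89 and 120 in deficient libraries. The other 2 genes had fewer, with 43, 45 and 29 counts in WT against 30, 36 and 38 in deficient libraries for Mir484. Mir744 was counted 50, 49 and 32 times in WT and 29, 35 and 28 times in deficient libraries. Among the 23 features that passed the count minimum, Mir423 ranked 2, Mir328 ranked 4, Mir744 ranked 10 and Mir484 ranked 11 by mean level over the 6 libraries. The order differed between genotypes, as Mir423 ranked 3 in WT, behind Mir342, and 2 in deficient libraries, where Mir6236 ranked 3. Mir328 ranked 4 in both, while Mir744 and Mir484 ranked 10 and 11 in WT and 11 and 10 in deficient libraries. By raw counts Mir342, with 929, stood just above Mir423, with 922. Together the 4 genes had 2046 counts, or 13.0% of all counts in the miRNA table. Alignments that were not unique were left out of all counts, so features with near-identical copies could have lost reads. Ranks and shares therefore hold among the counted reads, and such a loss was not measured here.

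Set against the miRNA counts of each library, the 4 genes varied less in WT than in deficient mice, a contrast that depended on the scale, as given below. In WT replicates 1, 2 and 3 their summed share was 12.4%, 12.2% and 12.4%, whereas deficient replicates 1, 2 and 3 gave 16.2%, 21.3% and 9.88%. Replicates 1 and 2 of the deficient group thus lay above all WT libraries and replicate 3 below them. Mir423 took 5.58%, 5.15% and 6.05% in WT libraries and 7.22%, 9.49% and 4.44% in deficient libraries. The 95% Wilson interval of its share was 8.05% to 11.2% in deficient replicate 2 and 3.80% to 5.18% in replicate 3. The intervals of these replicates of 1 genotype thus did not overlap. Mir328 took 4.01%, 3.98% and 4.10% in WT libraries and 5.68%, 6.55% and 3.51% in deficient libraries. Its WT values were the closest of all, and the miR-181a/b-1-/- values lay on both sides of them. Mir484 took 1.28%, 1.47% and 1.07% in WT libraries and 1.65%, 2.65% and 1.11% in deficient libraries. Mir744 took 1.48%, 1.60% and 1.18% in WT libraries and 1.60%, 2.58% and 0.818% in deficient libraries. The intervals of deficient replicates 2 and 3 were apart for these 2 genes as well, at 1.92% to 3.65% against 0.810% to 1.52% for Mir484 and 1.86% to 3.56% against 0.567% to 1.18% for Mir744. Wilson intervals cover counting error only and treat the reads as independent. The reads were amplified by PCR and the sources used here mention no molecular identifiers, so these intervals could be too narrow.

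**Figure D1:**
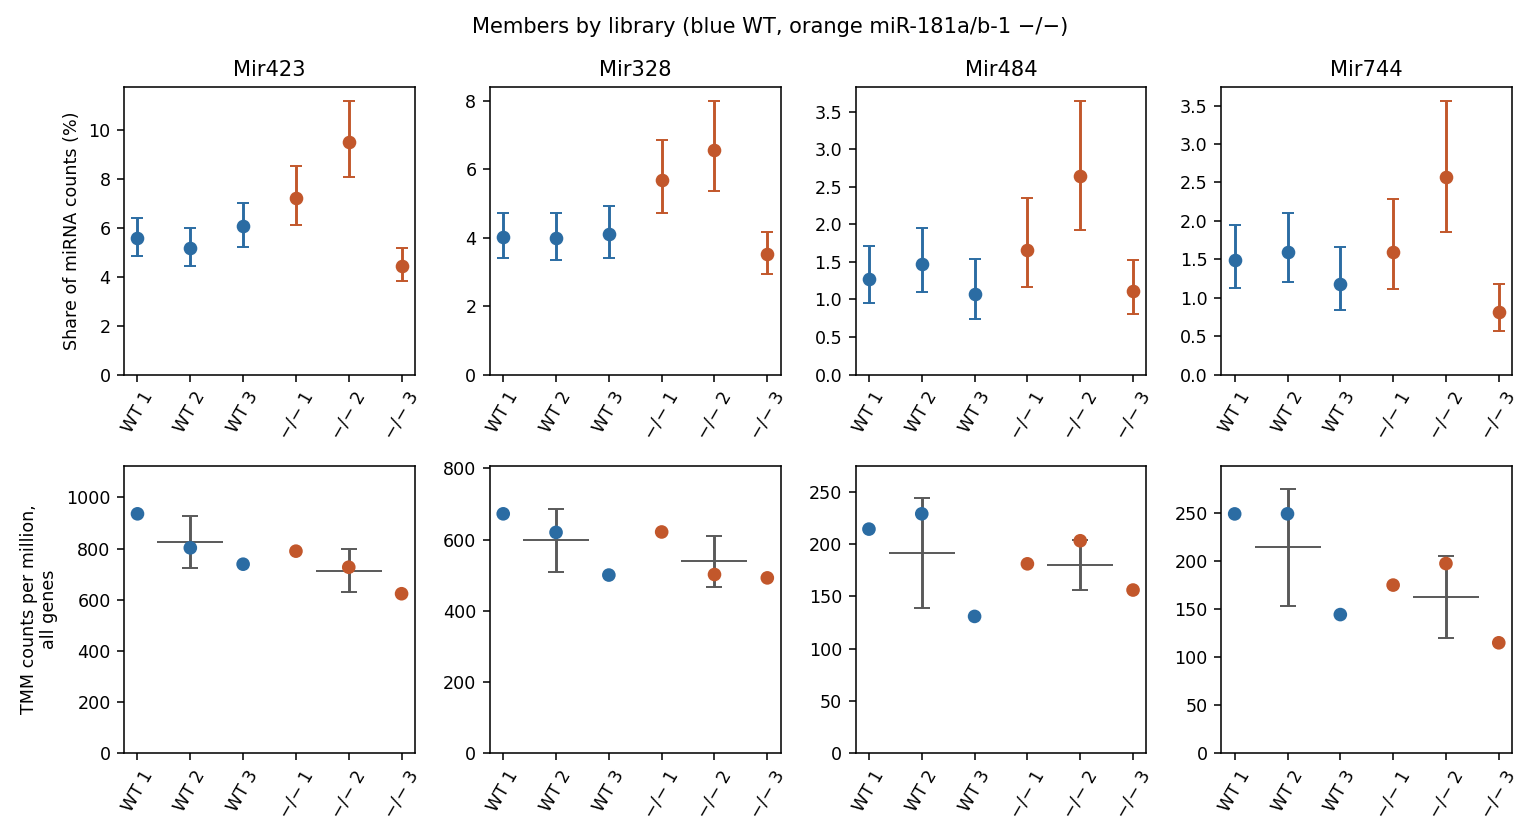
The upper panels show each gene's share of the miRNA counts in percent with its 95% Wilson interval, and the lower panels its TMM-normalized CPM over all genes with the mean and SD of each genotype (n = 3); WT libraries are blue and deficient libraries orange. In the upper panels deficient replicate 2 is highest and replicate 3 lowest among the libraries of that genotype, while in the lower panels the genotypes overlap for all 4 genes.

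The spread between replicates was compared with the spread that counting alone would give. With the miRNA counts of each library as the total, the variance of the WT counts was 1.06 times that of counting alone for Mir423, 0.0283 times for Mir328, 0.881 times for Mir484 and 0.917 times for Mir744. In WT mice these 4 genes therefore varied about as much as counting allows, or less, whereas the median over the 23 features was 2.06. Among deficient libraries the same quantity was 21.8 for Mir423, 11.9 for Mir328, 7.35 for Mir484 and 11.1 for Mir744, beside a median of 1.72 over the 23 features. Most of the 23 features have fewer counts, for which this quantity tends to be smaller. The other 7 features with at least 221 counts ranged from 0.249 to 12.9 in WT and from 1.197 to 14.4 in deficient libraries, and Mir6236 went from 0.249 to 14.4, so large values in deficient libraries also occurred outside the 4 genes. The contrast depended on the total used. With all gene counts of each library as the total, the values were 2.65 in WT and 7.69 in deficient libraries for Mir423, 2.56 and 5.80 for Mir328, 2.84 and 1.83 for Mir484, and 3.40 and 4.43 for Mir744. With this total Mir484 varied more in WT than in deficient libraries. On the all-gene TMM scale the coefficient of variation was higher in WT for all 4 genes, at 12.2% against 11.8% for Mir423, 14.8% against 13.3% for Mir328, 27.7% against 13.1% for Mir484 and 28.3% against 26.3% for Mir744, so the contrast was not seen there. A variance from 3 libraries is itself uncertain, and the difference between genotypes in spread was not tested.

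The levels under miRNA normalization were scaled with TMM factors over the 23 features and are given per 1000 miRNA counts. Mir423 had levels of 59.8, 61.2 and 63.9 in WT and 82.3, 86.9 and 50.6 in deficient libraries. Mir328 had levels of 42.9, 47.2 and 43.2 in WT and 64.7, 59.97 and 39.9 in deficient libraries. For both genes replicates 1 and 2 of miR-181a/b-1-/- lay above and replicate 3 below every WT library. Mir484 had levels of 13.7, 17.4 and 11.3 in WT and 18.8, 24.3 and 12.6 in deficient libraries. Mir744 had levels of 15.9, 19.0 and 12.5 in WT and 18.2, 23.6 and 9.31 in deficient libraries. Genotypes overlapped for all 4 genes, and 0 of 4 separated the groups, whereas 8.7% of the 23 features did.

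The mean level of Mir423 was 61.6 ± 2.07 in WT and 73.3 ± 19.8 in deficient mice (SD, n = 3 each here and below), a log2 fold change of 0.24 (SE 0.30, 95% interval -0.36 to 0.84). Mir328 went from 44.5 ± 2.40 to 54.9 ± 13.2, a log2 fold change of 0.29 (SE 0.32, 95% interval -0.34 to 0.93). Mir484 went from 14.1 ± 3.09 to 18.6 ± 5.81, a log2 fold change of 0.36 (SE 0.39, 95% interval -0.42 to 1.14). Mir744 was at 15.8 ± 3.25 and 17.0 ± 7.21, a log2 fold change of 0.06 (SE 0.39, 95% interval -0.72 to 0.84). None of these differences exceeded the spread between replicates in edgeR's quasi-likelihood test, with adjusted p = 0.763 for the first 3 genes and 0.933 for Mir744. The test called 0 of the 4 genes, beside 4.35% of the 23 features (1 feature, Mir6236, which was higher in deficient libraries). Mir6236 is counted as an miRNA here by the deposited table alone. Whether its reads come from an miRNA was not examined. All 4 intervals include 0 and differences of either sign. The values also rested on the count minimum. Without it the log2 fold changes were -0.08 for Mir423, -0.03 for Mir328, 0.06 for Mir484 and -0.25 for Mir744, and with at least 10 counts in every library they were 0.47, 0.51, 0.60 and 0.31. With the size factors of the authors in place of TMM they were 0.026, 0.066, 0.15 and -0.15. That of Mir744 was also negative without WT replicate 3 or without deficient replicate 1 or 2. Leaving out 1 library gave 0.062 (without WT replicate 2) to 0.43 (without deficient replicate 3) for Mir423, 0.15 to 0.46 for Mir328 with the same libraries left out, and 0.12 (without deficient replicate 2) to 0.58 (without deficient replicate 3) for Mir484. In edgeR the smallest adjusted p among these was 0.157, for Mir423 and Mir328 without deficient replicate 3.

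When all 1391 genes that passed the count minimum were normalized together, the same 4 genes had negative instead of positive log2 fold changes, again within the replicate spread. Levels on this scale are TMM-normalized CPM (counts per library scaled to a common size) over all genes. Mir423 was at 936, 803 and 739 in WT and 790, 727 and 624 in deficient libraries, with means of 826 ± 100 and 714 ± 84.1 (SD, n = 3). Mir328 was at 672, 620 and 500 in WT and 621, 502 and 492 in deficient libraries, with means of 597 ± 88.1 and 538 ± 71.8. Mir484 was at 214, 229 and 131 in WT and 180.9, 203 and 156 in deficient libraries, with means of 191 ± 52.9 and 180 ± 23.5. On this scale replicate 3 was the lowest library of each genotype for all 4 genes. Mir744 was at 249, 249 and 144 in WT and 175, 197 and 115 in deficient libraries, with means of 214 ± 60.5 and 162 ± 42.6.

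The log2 fold changes on the all-gene scale were -0.21 for Mir423 (SE 0.25, 95% interval -0.72 to 0.30), -0.15 for Mir328 (SE 0.25, 95% interval -0.67 to 0.37), -0.09 for Mir484 (SE 0.30, 95% interval -0.70 to 0.52) and -0.41 for Mir744 (SE 0.31, 95% interval -1.05 to 0.23). The edgeR fit gave each of them an adjusted p of 0.980. Leaving out 1 library gave -0.30 (without deficient replicate 1) to -0.11 (without deficient replicate 3) for Mir423, -0.27 (without deficient replicate 1) to -0.076 (without WT replicate 1) for Mir328 and -0.63 (without WT replicate 3) to -0.19 (without deficient replicate 3) for Mir744. The value of Mir484 ran from -0.31 without WT replicate 3 to 0.06 without WT replicate 2, and was 0.02 without deficient replicate 3. The test called 0 of the 4 genes and 0% of the 1391 genes, of which 35 were higher and 37 lower at an unadjusted p under 0.05, and DESeq2 also called 0 genes. Again 0 of the 4 genes separated the genotypes, beside 8.05% of the 1391 genes. Between the scalings the fold changes moved by -0.45, -0.44, -0.45 and -0.47 for Mir423, Mir328, Mir484 and Mir744, and the median move over the 23 features was -0.37. Over the 23 miRNA features the median log2 fold change was 0.07 with miRNA normalization and -0.27 with all-gene normalization, so the sign of a small difference followed the reference it was set against. The 4 genes had medians of 0.27 and -0.18 on these scales.

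**Figure D2:**
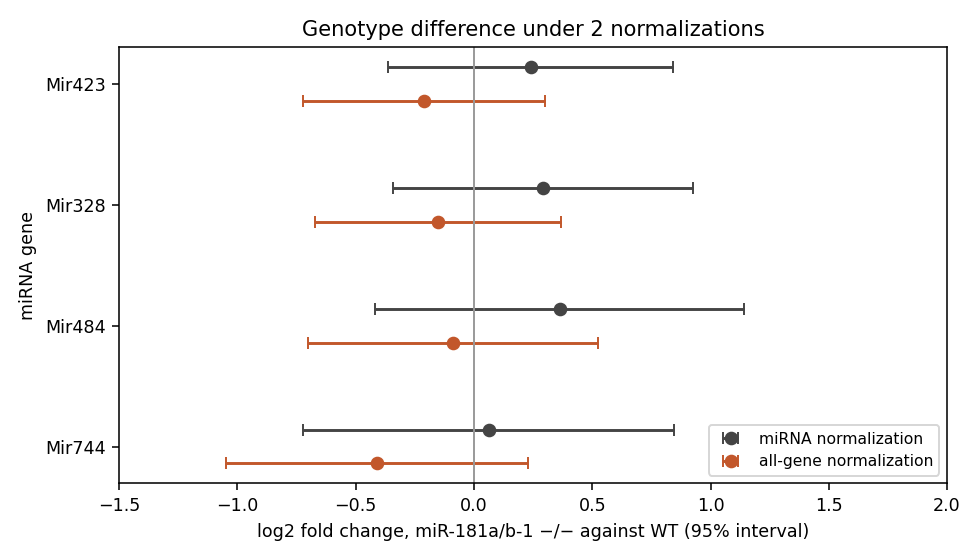
Points are log2 fold changes of miR-181a/b-1-/- against WT from edgeR (n = 3 per genotype) and bars their 95% intervals, in grey with miRNA normalization and in orange with all-gene normalization. All 8 intervals include 0, and all 4 points lie above 0 with the first scaling and below 0 with the second.

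A ratio of counts between genes of the same library does not depend on any normalization. The log2 ratio of Mir423 to Mir328, with 0.5 added to each count, was 0.48, 0.37 and 0.56 in WT and 0.35, 0.53 and 0.34 in deficient libraries. This pair kept nearly the same ratio in all 6 libraries, with an SD of 0.098 where counting alone would give 0.180. Over the 6 pairs of the 4 genes the SD ran from 0.098 to 0.313 (Mir328 to Mir744), and in 4 of the 6 pairs it was below the SD from counting alone. The log2 ratio of Mir484 to Mir744 was -0.22, -0.12 and -0.14 in WT and 0.05, 0.04 and 0.43 in deficient libraries. It was thus higher in every deficient library than in any WT library, by 0.33 on average, and by 0.20 without deficient replicate 3. Counting alone would give this ratio an SD of 0.342, more than the 0.233 seen over the 6 libraries. The exact two-sided permutation test gave p = 0.1, the smallest that 3 against 3 libraries allow, and an adjusted p of 0.6 over the 6 pairs. The genotype differences of the other 5 ratios ran from -0.16 to 0.24, with exact p from 0.4 to 0.7, an adjusted p of 0.7 in each and overlapping groups. These small differences rested on single libraries. Without WT replicate 3 the difference of Mir423 to Mir484 went from -0.16 to 0.016 and that of Mir328 to Mir484 from -0.094 to 0.034, the latter being 0.042 without deficient replicate 2. That of Mir423 to Mir744 went from 0.17 to 0.028 without WT replicate 2, that of Mir328 to Mir744 from 0.24 to 0.069 without deficient replicate 3, and that of Mir423 to Mir328 from -0.064 to -0.018 without WT replicate 3.

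Compared with other miRNA genes of similar or higher counts, the 4 genes varied together. Of the 23 features, 11 had at least 221 counts, the total of Mir484, and form 55 pairs. The SD of the log2 ratio over the 6 libraries had a median of 0.241 for the 6 pairs within the 4 genes, of 0.678 for the 28 pairs of 1 of them with another feature (0.482 to 0.993), and of 0.537 for the 21 pairs without any of them (0.267 to 1.15). In the order of all 55 pairs, from the smallest SD up, the pairs within the 4 genes ranked 1, 2, 3, 4, 6 and 8. The other pairs among the first 8 were Mir342 with Mirlet7g and Mirlet7g with Mir150. These values describe 6 libraries and carry no test. The pairs share libraries and genes, and the 4 genes were chosen with the data known.

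**Figure D3:**
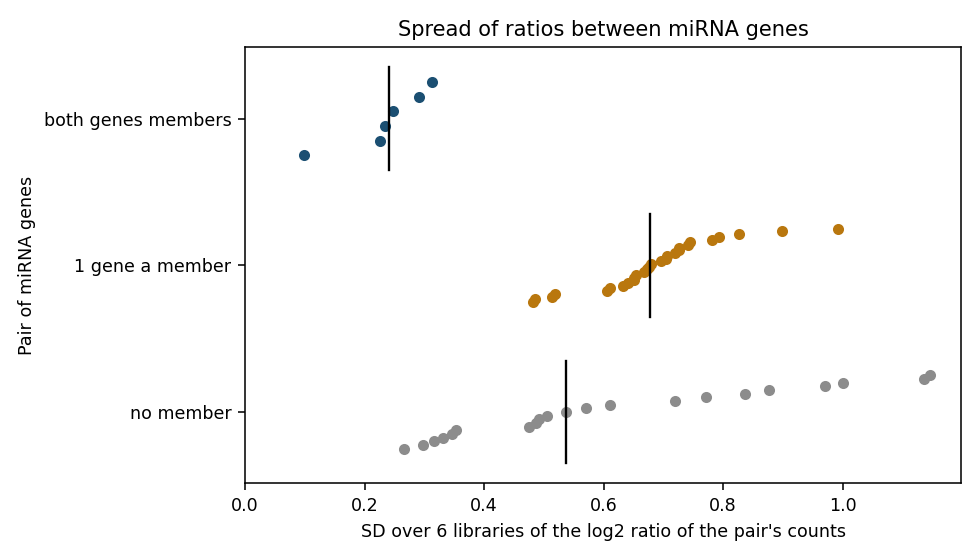
Each point is a pair among the 11 miRNA genes with at least 221 counts, placed by the SD over 6 libraries of the log2 ratio of its counts, and black lines are medians. The 6 pairs within Mir423, Mir328, Mir484 and Mir744 lie between 0.098 and 0.313, below all 28 pairs of 1 of them with another gene.

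The profile most like that of Mir423 under miRNA normalization was that of Mir328 (Pearson r = 0.943 over the 6 libraries), followed by Mir744 (0.808). Mir328 was most like Mir423 (0.943) and Mir484 (0.848), Mir484 most like Mir744 (0.870) and Mir328 (0.848), and Mir744 most like Mir484 (0.870) and Mir423 (0.808). For each of the 4 genes the first 3 places went to the other 3, and Mir6236 came next with r of 0.451, 0.542, 0.637 and 0.198 for Mir423, Mir328, Mir484 and Mir744. On the all-gene scale Mir15b took the third place for Mir423 (0.679) and Mir328 (0.682), ahead of Mir484, while the first 3 places for Mir484 and Mir744 did not change. The 6 points of each correlation share depth and a common total, in which Mir150 alone weighs heavily.

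The 4 genes were also compared between replicates of the miR-181a/b-1-/- group. Between replicate 3 and the mean of replicates 1 and 2 of that genotype, the log2 level under miRNA normalization differed by -0.74 for Mir423, -0.64 for Mir328, -0.75 for Mir484 and -1.14 for Mir744. Of the other 19 features, 1 was negative (Mir6236, at -0.14), and their median was 0.52. On the all-gene scale the 4 differences were -0.28, -0.18, -0.29 and -0.68, whereas all 19 other features were positive, from 0.32 to 2.13. For the same difference among WT replicates, 3 of the 4 genes and 9 of the 19 others were negative under miRNA normalization. On the all-gene scale all 4 genes (median -0.56) and 12 of the 19 others (median -0.22) were negative in WT, and the median of the 4 genes was further from 0 there than in deficient libraries (-0.29). Mir150, a miRNA of mature lymphocytes and the most abundant feature, had raw counts of 1748, 1769 and 1482 in WT and 904, 579 and 1797 in deficient libraries. Its own difference between deficient replicate 3 and the mean of replicates 1 and 2 was 0.34 in log2 level under miRNA normalization and 0.80 on the all-gene scale. Per 100 Mir150 counts the 4 genes together had 23.8, 21.1 and 22.7 counts in WT and 32.4, 49.9 and 18.8 in deficient libraries. The share of gene counts on the miRNA table was lowest in deficient replicate 2 (0.697%), the library with the highest shares of all 4 genes, and its part in these differences was not tested.

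**Figure D4:**
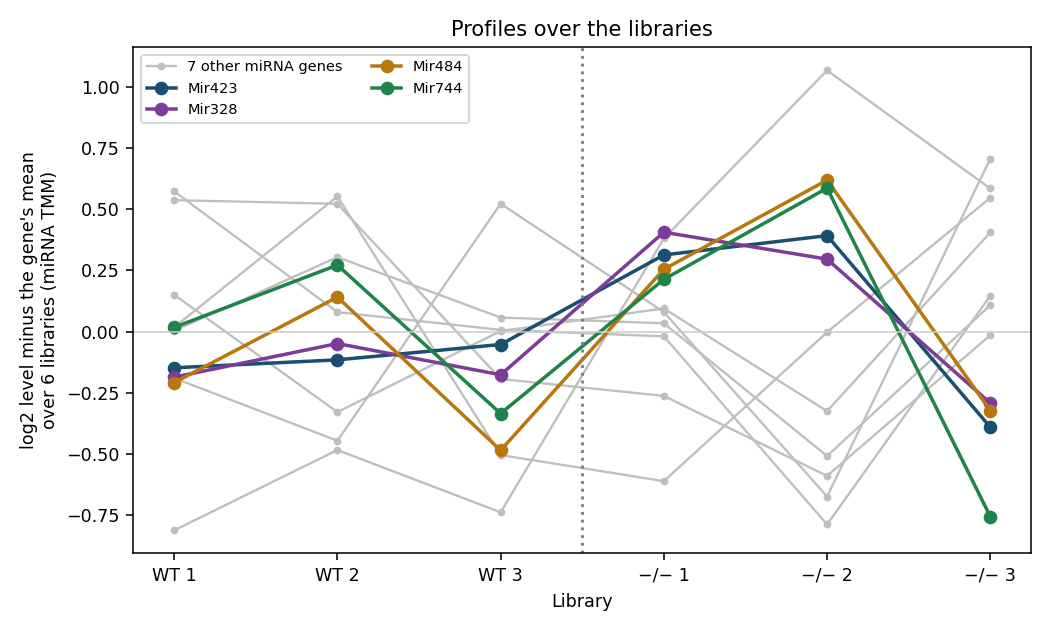
Each line is 1 of the 11 miRNA genes with at least 221 counts, drawn as the log2 level in a library minus the gene's own mean over 6 libraries (miRNA normalization); lines only link the values of a gene. The 4 coloured genes lie above their mean in deficient replicates 1 and 2 and below it in replicate 3, where most of the 7 grey genes lie above theirs.

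Levels between genes were compared per 100 bases of the annotated hairpin, as TMM-normalized counts per 1000 miRNA counts over all 6 libraries. Mir150 came first at 865 (SD 148 over 6 libraries), and Mir423 at 61.9 (SD 12.9) came next. Mir342 at 61.8 (SD 19.5) and Mir23a at 60.6 (SD 12.0) followed within this spread. In WT alone Mir342 (74.4) and Mir23a (57.8) were above Mir423 (56.5), which came after Mir150 in deficient libraries only (67.2). Mir328 ranked 5 at 51.2 (SD 10.5), between Mir23a and Mir23b at 40.0 (SD 15.05), and differed from neither beyond this spread. Mir484 ranked 10 at 24.4 (SD 7.20), below Mir142 at 29.9 (SD 10.03) and above Mir15b at 16.8 (SD 5.55). Mir744 ranked 12 at 16.4 (SD 5.05), just below Mir15b and above Mir146 at 12.9 (SD 5.46). It was below Mir15b in WT (15.8 against 20.9) and above it in deficient libraries (17.0 against 12.6). Mir744 had as many raw counts as Mir484 (223 and 221) but a longer hairpin, with 100 against 67 bases, so its level per length was lower. Where the reads fall within a hairpin was not measured here. The order depends on the annotated length and covers unique alignments only.

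Genes that overlap the hairpins were counted too thinly to follow the miRNAs. Nsrp1, the host of Mir423, had 4 to 10 counts per library, or 22 in WT and 23 in deficient libraries. Map2k4, the host of Mir744, had 1 to 9 counts per library, with 6 and 15 in all, and Elmo3, opposite Mir328, had 2 and 0. Marf1, opposite Mir484, had 24 and 29 counts and was the only one of the 4 to pass the count minimum, with a log2 fold change of 0.34 (SE 0.46, adjusted p = 0.980 with edgeR). These libraries were made from short RNA, and counts on such genes are fragments rather than whole messengers.

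The genes that make and use miRNAs were taken as a list of 26, of which 23 had counts and 6 passed the count minimum. In the all-gene comparison 0 of these 6 were called in either direction, as was the case for all 1391 genes. Ddx5, an RNA helicase of the Drosha complex, had 300 counts and a log2 fold change of -0.20 (SE 0.27). Tnrc6a and Tnrc6b, which link Ago proteins to silencing, had 164 and 148 counts and log2 fold changes of 0.20 (SE 0.31) and -0.35 (SE 0.33). Tut4, which adds uridine to miRNA precursors, had 139 counts and a log2 fold change of -0.17 (SE 0.30). Ddx17 and Ago2, the remaining genes of these 6, had 97 and 76 counts. Their log2 fold changes were -0.26 (SE 0.35) and -0.45 (SE 0.36). Dgcr8, Ago4 and Lin28b had 0 counts, and Drosha had 17 and Dicer1 43 over all 6 libraries, so that no statement on the processing machinery can be drawn at this depth.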

How the data were processed

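Small RNA was measured in sorted Treg cells of 3 miR-181a/b-1-/- and 3 WT samples. The authors made libraries with the SMARTer smRNA-Seq kit, trimmed reads with Flexbar, removed ribosomal RNA with Bowtie 2, aligned with STAR and counted with HTSeq, and deposited raw counts per gene for each sample. The submitters' processing notes name GRCm38.p6, and the annotation release is not given in the sources used here. Of 54547 identifiers, 53620 matched GENCODE vM21 without their version. The authors also deposited a miRNA table with signal columns, in which each sample's counts are divided by 1 size factor; these served only to read the size factors. Its fold changes and p-values were not used. Records given to no gene (75.7% to 80.3% of a library) were left out; these include alignments that were not unique (41.7% to 46.2% of a library) and those on more than 1 gene (20.4% to 24.0%).

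Features with at least 10 counts in at least 3 libraries were tested with edgeR 4.0.16 in R 4.3.3 (TMM, quasi-likelihood test, Benjamini-Hochberg adjustment over all features tested, threshold 0.05), once over the miRNA table and once over all genes. DESeq2 1.42.0, other filters and scalings, a replicate block and leaving out each library were alternatives. Ratios between genes were compared with exact permutation tests in SciPy 1.17.1. Libraries had 1359 to 3422 counts on the miRNA table. The 4 genes, the gene lists and the comparisons were chosen with earlier results of these data known. Besides the 4 genes, genes were named if they overlap a hairpin, lie next to one of them in level per length, have one of the most similar profiles, or belong to a marker or miRNA processing list; Mir6236, Mirlet7g and the genes called in alternatives were named after their values were seen.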

Additional observations from a re-analysis of the deposited data

How the results depend on the processing

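In 87 of 96 alternatives for the 8 log2 fold changes of Mir423, Mir328, Mir484 and Mir744 the direction and the side of the threshold were those of the main value, in 9 the direction was the opposite, and none of the 96 had an adjusted p under 0.05. With miRNA normalization and no count minimum, log2 fold changes were -0.083 for Mir423, -0.027 for Mir328 and -0.25 for Mir744, and 0 features were called; 178 features were then tested. With the size factors of the authors, added after seeing the data, Mir744 was at -0.15, Mir423, Mir328 and Mir484 were at 0.026, 0.066 and 0.15, and 2 features were called (Mir150 and Mir6236). On the same features DESeq2 gave 0.39, 0.42, 0.51 and 0.25 for Mir423, Mir328, Mir484 and Mir744. Leaving out 1 library gave -0.26 to 0.38 for Mir744 (negative when WT replicate 3 or miR-181a/b-1-/- replicate 1 or 2 was left out) and 0 to 1 calls (0 without WT replicates 1 and 2) with miRNA normalization. With all-gene normalization it gave -0.31 to 0.060 for Mir484 and 0 to 8 calls, namely 8 without miR-181a/b-1-/- replicate 1, 2 without replicate 2 (Gm20700 and Gm22247) and 4 without replicate 3 (Mtmr3, Btbd10, Nphp4 and Mir342). On that scale 8 genes were called without a count minimum and 72 passed an unadjusted p under 0.05. Leaving out 1 library, added after seeing the data, the genotype difference in log2 ratio ran from -0.32 to 0.016 for Mir423 to Mir484 and from -0.21 to 0.042 for Mir328 to Mir484. The causes were not tested.

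Libraries of both genotypes carry the same replicate numbers, but nothing in the labels ties them, and the deviations of same-numbered libraries correlated at -0.07, 0.45 and 0.33 with miRNA normalization and at 0.21, 0.08 and 0.17 with all-gene normalization, where every library correlated best with its own number. With the replicate block, log2 fold changes of Mir423, Mir328, Mir484 and Mir744 were 0.21, 0.27, 0.37 and 0.05 with 1 call, and -0.21, -0.15, -0.06 and -0.39 with 0 calls, respectively. Counting error weighs most for Mir484 and Mir744, with 28 to 50 counts per library, while the variance between miR-181a/b-1-/- replicates was 7.35 to 21.8 times that of counting alone with the miRNA total.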
